A study of Homo sapiens with 18 samples.

Results

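Histone deacetylases are the enzymes that take acetyl groups off lysines, and 10 genes of the zinc-dependent family were followed here: HDAC1, HDAC2, HDAC3, HDAC4, HDAC5, HDAC6, HDAC7, HDAC8, HDAC9 and HDAC11. They were chosen by name, with earlier results of these data known, by a rule that uses none of their values. Each had a gene row in the table of each cell line, 10 of the 20374 genes that the series holds over its tables. The samples are total RNA of lung cancer cell lines that had been kept for 24 h in 5 µM CCS1477 or in its solvent DMSO, with 3 libraries in each of 6 groups. CCS1477 binds the bromodomain of the histone acetyltransferases p300 (EP300) and CBP (CREBBP). The lines are H460, labelled large cell carcinoma, H2023, labelled squamous, and ABC-1, labelled adenocarcinoma; the series calls the first pair NRF2-activated and ABC-1 wildtype. Each genetic background is thus carried by 1 or 2 lines, and other differences between the lines go with it. The labels do not state whether replicates were separate cultures, so p-values measure the spread between libraries only, and the series text gives the dose in mM where the columns give µM.

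Acetyl groups written by p300 and CBP on histone tails are removed by deacetylases, so the family is the opposing arm of the chemistry that the compound's targets carry out. Class I enzymes are mainly nuclear: HDAC1 and HDAC2 are interchangeable catalytic subunits of the SIN3, NuRD and CoREST complexes, HDAC3 is the catalytic subunit of the NCoR corepressor complexes, and HDAC8 acts outside such complexes, with the cohesin subunit SMC3 as a known substrate. Class IIa enzymes, HDAC4, HDAC5, HDAC7 and HDAC9, have little catalytic activity of their own, bind MEF2 transcription factors and move between nucleus and cytoplasm with phosphorylation and 14-3-3 binding; HDAC6 of class IIb works on tubulin and other cytoplasmic proteins, and HDAC11 is the sole class IV enzyme.

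After CCS1477, HDAC7 fell and HDAC3 and HDAC11 rose in each of the 3 lines. HDAC1 and HDAC4 fell in H460 and H2023. HDAC2 fell in ABC-1, HDAC6 rose in H460 and HDAC5 rose in H2023. Of these, HDAC11 in H460 and HDAC5 in H2023 entered the test through their CCS1477 libraries. The HDAC11 call in H2023 ended when certain single libraries were left out. HDAC8 passed the threshold in no line, nor did HDAC9, which was too low to test in H460.

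Upstream sequences of the members that moved the same way in each line, and of HDAC1, the member with the highest level per exon length, are printed to show the letters from which these genes are read. They are from RefSeq on GRCh38.p14, where 9 of the 10 members matched, with 19 start sites. The window of each was the 250 bases before the start site, and only the letters outside annotated exons are printed: HDAC1 at chr1:32291833-32292082 on the plus strand, HDAC3 at chr5:141636871-141636949 on the minus strand, HDAC7 at chr12:47819981-47820153 on the minus strand and HDAC11 at chr3:13480117-13480164 on the plus strand. Capitals mark a GC box (GGGCGG, the core bound by SP1-like factors) or a CCAAT box (CCAAT), each on either strand.
HDAC1: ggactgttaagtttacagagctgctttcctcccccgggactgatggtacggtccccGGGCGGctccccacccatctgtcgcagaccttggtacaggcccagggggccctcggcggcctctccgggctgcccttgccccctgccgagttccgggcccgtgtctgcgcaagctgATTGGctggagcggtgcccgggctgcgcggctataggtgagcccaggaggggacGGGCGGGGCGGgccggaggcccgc
HDAC3: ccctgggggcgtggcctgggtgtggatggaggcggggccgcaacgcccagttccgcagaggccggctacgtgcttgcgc
HDAC7: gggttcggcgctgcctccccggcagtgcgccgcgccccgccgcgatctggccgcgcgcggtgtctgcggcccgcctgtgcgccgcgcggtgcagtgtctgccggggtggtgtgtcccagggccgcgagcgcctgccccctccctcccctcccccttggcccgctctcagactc
HDAC11: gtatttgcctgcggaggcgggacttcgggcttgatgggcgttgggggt
Over the whole windows, HDAC1 had 3 GC boxes and 1 CCAAT box, and its last 2 GC boxes share a base. HDAC3 had 1 GC box and HDAC11 had 5, all in letters not printed here. HDAC7 had neither motif. A GC box was found in 42.64% and a CCAAT box in 32.01% of the 35116 promoter windows searched. The TATA box (TATAAA), the cAMP response element (TGACGTCA) and the antioxidant response element (TGACNNNGC) were searched for on both strands too. None of the 4 windows held one, against 10.72%, 1.646% and 10.91% of all windows. Over the 19 windows of members, 3 held an antioxidant response element, in HDAC4 and HDAC6, and none held a TATA box or cAMP response element. The window of HDAC1 had a GC content of 71.6%, that of HDAC3 70.8%, that of HDAC7 75.6% and that of HDAC11 73.6%, and the median of all windows was 58%.

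The depth per library was 26652278 to 33568192 recovered reads in H460, 15352622 to 18261167 in H2023 and 14483979 to 17483291 in ABC-1. In H460, CCS1477 replicate 1 stood apart, with 0.795% mitochondrial reads against 1.77 to 2.06% in the other 5 libraries of that line. Without it the same number of family members, 6 of 9, passed the threshold in H460, and no change of a member in H460 crossed the threshold in either direction. Keratins KRT8 and KRT18 were above 500 CPM (recovered reads scaled to a total of 1000000) in each line. Of the other epithelial markers, KRT19 stood at 687 CPM in H460 DMSO libraries, but EPCAM was at 0.659 CPM there and CDH1 had no gene row. The squamous label of H2023 was not matched by its markers: TP63 stood at 1.84 CPM in DMSO and KRT5, KRT6A, KRT14, SOX2 and DSG3 had no gene row in that table. In ABC-1, labelled adenocarcinoma, the squamous marker SOX2 stood at 149 CPM in DMSO and at 66.7 CPM with CCS1477. Of the neuroendocrine markers, NCAM1 stood at 42.4 CPM in H2023 DMSO libraries. H460 had CHGA at 15.6 and NCAM1 at 10.8 CPM in DMSO, and ABC-1 had a row for SYP alone, at 0.765 CPM. Of the adenocarcinoma markers, ABC-1 had MUC1, a surface mucin, at 98.4 ± 4.18 CPM in DMSO and NKX2-1 at 1.34 CPM, and no gene row for NAPSA or the surfactant genes SFTPB, SFTPC and SFTPA1. Both markers with a row fell in that line, MUC1 to 33.1 ± 3.28 CPM (log2 change -1.63, limma adjusted p = 4.68e-09). Markers of fibroblasts, endothelium and immune cells summed to 12.1 to 38.0 CPM in DMSO libraries; with CCS1477 the sum was 18.9 to 19.8 CPM in H460, 22.7 to 25.4 CPM in H2023 and 25.4 to 26.8 CPM in ABC-1. Of that list COL1A2, DCN, CDH5 and CD3E had no gene row in any table. Of the 5 epithelial markers, 1 of 3 tested rose in H460, 5 of 5 fell in H2023 and 3 of 5 rose in ABC-1. Over all genes tested, 28.2% rose in H460, 31.9% fell in H2023 and 33.5% rose in ABC-1, and the markers were not tested against these shares. The part of such marker shifts in the results below was not tested.

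In untreated cells HDAC1 had the highest level per exon length of the family in each line. Its TPM (reads per merged exon length, scaled to the same total in each library) was 24.3 ± 1.59 in H460, with 97.5 ± 7.45 in H2023 and 64.8 ± 4.51 for ABC-1 (mean ± SD, n = 3 here and for every mean below). HDAC3 came next in each, at 18.8 ± 1.32, 44.0 ± 2.16 and 22.6 ± 1.13 TPM. HDAC9 was the lowest in H460, at 0.0319 ± 0.0052 TPM, and in ABC-1, at 0.610 ± 0.0504 TPM. In H2023 the lowest place went to HDAC5, at 0.316 ± 0.108 TPM, whose libraries overlapped those of HDAC9 at 0.385 ± 0.0740 TPM.

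The order of the middle of the family differed between lines. H460 ran from HDAC2 (13.0 TPM) through HDAC4 (10.6), HDAC7 (6.25), HDAC6 (2.42), HDAC8 (0.974) and HDAC5 (0.559) to HDAC11 (0.331), and the libraries of no 2 neighbours in that order overlapped. H2023 ran from HDAC2 (17.5 TPM) through HDAC4 (14.9), HDAC7 (13.1), HDAC6 (4.46) and HDAC8 (1.18) to HDAC11 (0.833), where HDAC4 overlapped HDAC7 and HDAC8 overlapped HDAC11. ABC-1 ran from HDAC7 (21.6 TPM) and HDAC2 (21.3) through HDAC5 (11.8), HDAC6 (4.81), HDAC4 (2.80) and HDAC11 (1.85) to HDAC8 (1.54). In ABC-1 the libraries of HDAC3 overlapped those of HDAC7, those of HDAC7 overlapped those of HDAC2, and those of HDAC11 overlapped those of HDAC8. HDAC5 was thus a mid-level gene in ABC-1 and among the lowest in the other lines, and HDAC4 had the reverse placing. The merged exons of HDAC2 and HDAC8 span 15461 and 22986 bases in the annotation, the first including exons of minor transcripts, and those of HDAC1 span 3963 bases. A longer length lowers a TPM, so in H460 and ABC-1 the place of HDAC1 above HDAC2 rests on these lengths. In H2023 HDAC1 also had the higher CPM in DMSO, at 161 ± 3.79 against 112 ± 1.25 for HDAC2. The place of HDAC3 above HDAC2 rests on length in every line, as the merged exons of HDAC3 span 4631 bases. Its DMSO mean was 45.3 CPM for H460, below HDAC2 (105) and HDAC4 (74.0). H2023 libraries averaged 84.9 CPM for HDAC3, below HDAC2. The ABC-1 mean was 35.8 CPM, below HDAC2 (113) and HDAC7 (73.5). Length also puts HDAC8 below HDAC11 in ABC-1, where HDAC8 had 12.1 CPM and HDAC11 had 3.35.

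**Figure D1:**
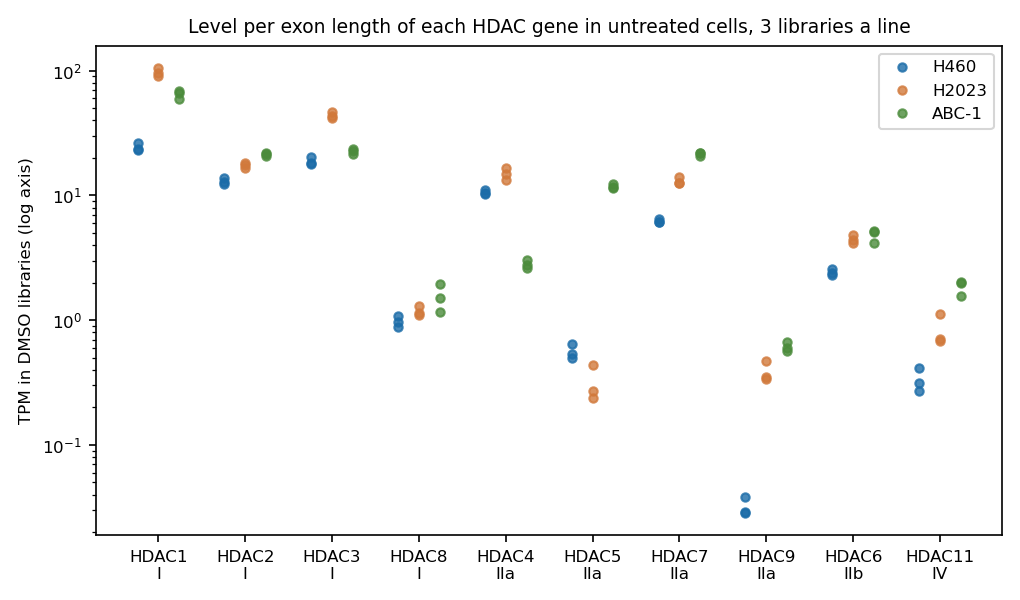
Level of each HDAC gene in DMSO libraries, as TPM on a log axis, with 1 point per library and 3 libraries a line; the class stands under each name. HDAC1 is highest in each line, and HDAC5 and HDAC4 change places between ABC-1 and the other lines.

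In H460, 6 of the 9 members tested passed the threshold (adjusted p under 0.05 in limma-trend, with Benjamini-Hochberg adjustment over all genes tested). Of these, 3 rose and 3 fell, while 56.1% of the 13516 genes tested passed it, 28.2% higher and 27.9% lower. In H2023, 6 of 10 members passed, 3 in each direction, where 60.6% of 14572 genes did, 28.6% higher and 31.9% lower. In ABC-1, 4 of 10 members passed, 2 in each direction, where 66.1% of 13543 genes did, 33.5% higher and 32.6% lower. These counts include HDAC11 in H460 and HDAC5 in H2023, which entered the test through their CCS1477 libraries. The shares of the family in H460 and H2023 are near those of all genes, and that in ABC-1 is below it. The median log2 change of the members tested was -0.02 for H460, then -0.04 for H2023 and -0.02 in ABC-1, beside 0.00, -0.01 and 0.01 over all genes tested. Without regard to sign the medians were 0.40, 0.44 and 0.17 for members and 0.28, 0.31 and 0.36 for all genes. On the deposited scale the libraries of the treatments did not overlap for 6 of 9 members in H460, 8 of 10 in H2023 and 4 of 10 in ABC-1, against 64.0%, 65.2% and 70.4% of all genes tested.

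**Figure D2:**
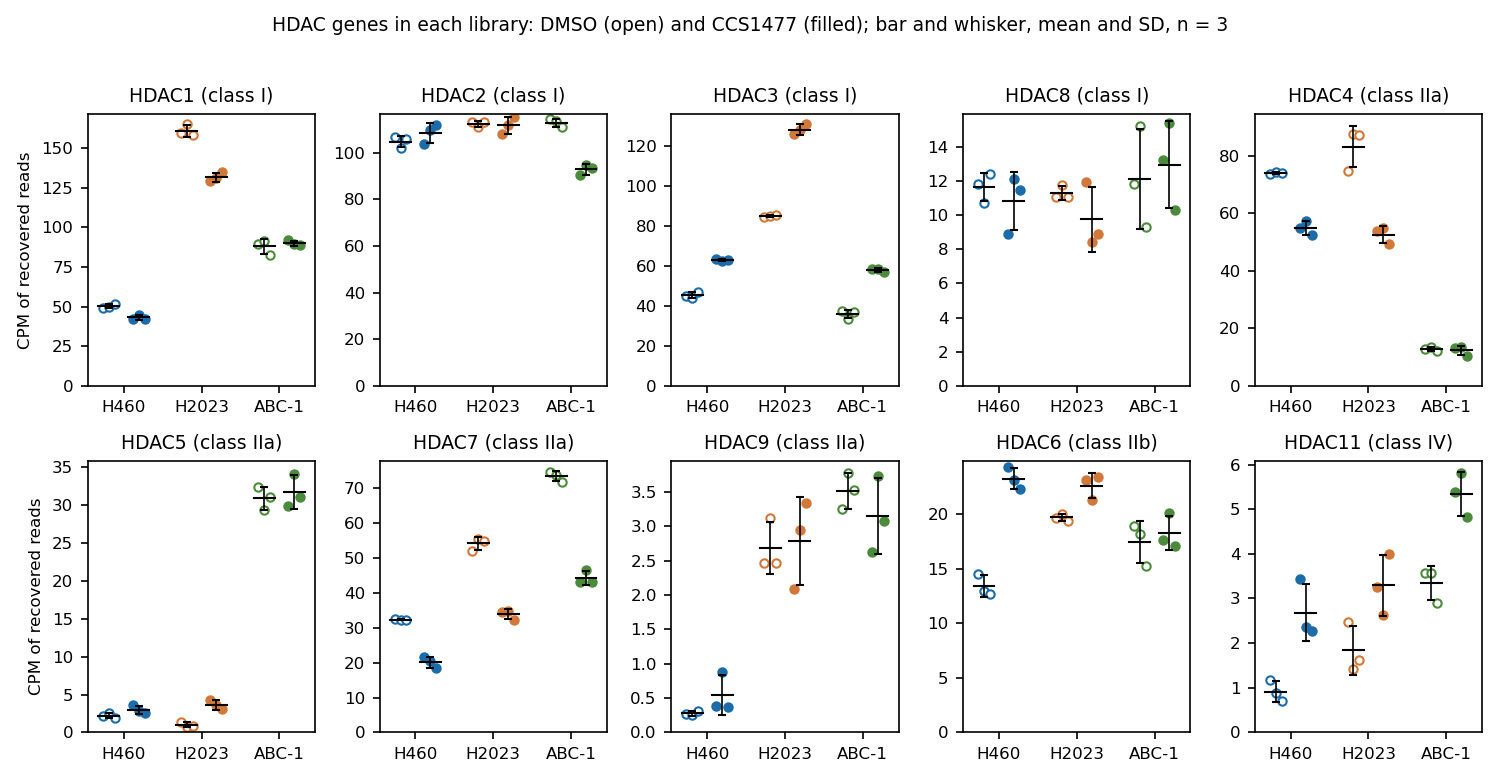
CPM of each HDAC gene in each of the 18 libraries by line, with DMSO libraries open and CCS1477 libraries filled; the black bar and whisker give the mean and SD of 3 libraries, and each panel has its own axis from 0. HDAC3 and HDAC11 lie higher and HDAC7 lower with CCS1477 in each line.

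Among class I genes, HDAC3 (ENSG00000171720, protein-coding, chromosome 5, 141620876 to 141636870 on GRCh38, minus strand) rose in each line. In H460 its CPM was 45.0, 43.9 and 46.9 in DMSO libraries and 63.5, 62.5 and 63.0 with CCS1477. H2023 had 84.6, 84.7 and 85.4 CPM in DMSO and 126, 128 and 131 CPM with CCS1477, and ABC-1 had 37.5, 33.4 and 36.7 against 58.1, 58.5 and 56.9 CPM. The treatments did not overlap in any line. The log2 change, on the deposited scale and with its SE here and below, was 0.40 ± 0.04 in H460 (limma, adjusted p = 1.23e-04), 0.54 ± 0.04 for H2023 (adjusted p = 4.85e-07) and 0.63 ± 0.05 for ABC-1 (adjusted p = 6.20e-07). As means, CPM was 39.2% higher in H460, 50.8% higher in H2023 and 61.4% higher in ABC-1. In bulk RNA, fewer cells with a transcript and less transcript per cell cannot be told apart, for this gene or any below.

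HDAC3 shares its start region with RELL2, whose exons reach into its 250-base window. RELL2 rose in ABC-1, with 2.15 ± 0.293 CPM in DMSO and 4.01 ± 0.163 CPM after treatment (log2 change 0.78 ± 0.16, limma adjusted p = 0.00119). It missed the threshold in H460 (0.27 ± 0.14, adjusted p = 0.143), and likewise in H2023 (0.06 ± 0.13, adjusted p = 0.710). An antisense gene annotated over HDAC3 exons, AC008781.1, had no gene row in the tables.

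HDAC1 (ENSG00000116478, protein-coding, chromosome 1, 32292086 to 32333635, plus strand) fell in both NRF2-activated lines. H460 libraries held 49.1, 49.7 and 51.7 CPM in DMSO and 42.5, 44.8 and 42.1 CPM with CCS1477. In H2023 the values were 159, 165 and 158 CPM in DMSO and 129, 131 and 135 CPM with CCS1477. Neither line had an overlap between treatments. The log2 change was -0.29 ± 0.05 for H460 (limma adjusted p = 0.00105) and -0.34 ± 0.04 for H2023 (adjusted p = 2.05e-05). In ABC-1, DMSO libraries at 89.6, 91.6 and 82.6 CPM overlapped CCS1477 libraries at 91.9, 89.4 and 88.9 CPM. The log2 change there was -0.02 ± 0.05 (adjusted p = 0.702), with a 95% interval from -0.14 to 0.09.

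HDAC2 (ENSG00000196591, protein-coding, chromosome 6, 113933028 to 114011308, minus strand), the close paralogue of HDAC1, had the reverse distribution over the lines. In ABC-1 it fell from 114, 114 and 111 CPM to 90.4, 94.9 and 93.3 CPM, with no overlap (log2 change -0.34 ± 0.04, limma adjusted p = 1.22e-05). H460 stood at 107, 102 and 106 CPM in DMSO and 104, 110 and 112 CPM with CCS1477, and H2023 at 113, 111 and 113 against 108, 112 and 115 CPM. On the CPM scale the treatments overlapped in both lines. On the deposited scale they overlapped in H460, but in H2023 each CCS1477 library was below each DMSO library. The log2 changes were -0.02 (95% interval -0.12 to 0.08, adjusted p = 0.681) and -0.06 (-0.15 to 0.02, adjusted p = 0.191). Over its exons the antisense gene HDAC2-AS2 had a gene row in the ABC-1 table alone, at 0.433 CPM.

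HDAC8 (ENSG00000147099, protein-coding, chromosome X, 72329516 to 72573199, minus strand) lay at 8.41 to 15.4 CPM over all 18 libraries. Its treatments overlapped in each line. The log2 change was -0.19 in H460 (95% interval -0.47 to 0.10, limma adjusted p = 0.233), -0.27 in H2023 (-0.55 to 0.00, adjusted p = 0.0822) and 0.04 in ABC-1 (-0.36 to 0.45, adjusted p = 0.842). These intervals leave room for changes as large as those of HDAC1. Without CCS1477 replicate 1 of H2023, at 11.9 CPM against 8.41 and 8.91 CPM in its replicates, HDAC8 passed the threshold in H2023 (-0.42, adjusted p = 0.00587). In H460 it passed once reads of transcript rows were counted too (-0.32, adjusted p = 0.00662), and without CCS1477 replicate 1 of that line the change was -0.05 (adjusted p = 0.650).

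**Figure D3:**
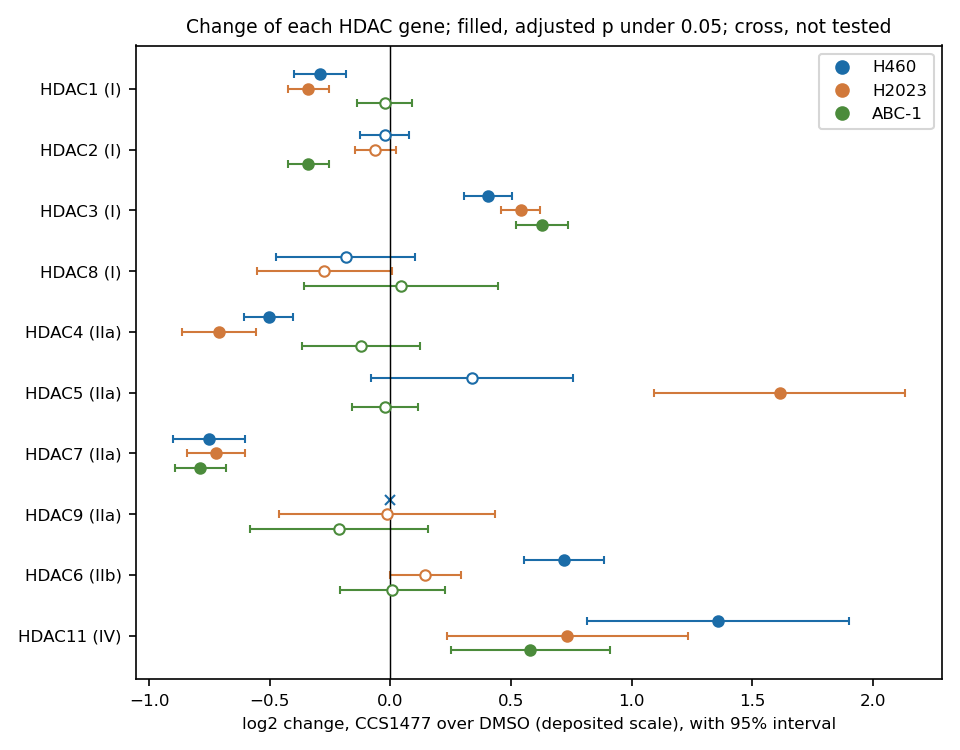
Log2 change of each HDAC gene after CCS1477 in each line, on the deposited scale, with 95% intervals; filled points passed an adjusted p of 0.05. HDAC3, HDAC7 and HDAC11 lie on 1 side of 0 with filled points in each line, and the cross for HDAC9 in H460 marks that it was not tested and carries no value.

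Of the class IIa genes, HDAC7 (ENSG00000061273, protein-coding, chromosome 12, 47782722 to 47833132, minus strand) fell in each line. H460 libraries went from 32.4, 32.3 and 32.3 CPM in DMSO to 21.6, 20.5 and 18.5 CPM with CCS1477. In H2023 DMSO libraries stood at 52.1, 55.6 and 54.9 CPM and CCS1477 libraries at 34.6, 34.9 and 32.3 CPM, and in ABC-1 at 74.8, 73.9 and 71.8 against 43.0, 46.5 and 43.2 CPM. Every CCS1477 library was below every DMSO library of its line. The log2 change was -0.75 ± 0.06 in H460 (limma adjusted p = 3.97e-05), -0.72 ± 0.05 for H2023 (adjusted p = 8.48e-07) and -0.79 ± 0.05 for ABC-1 (adjusted p = 6.60e-08). The starting levels differed between lines by more than these changes did: the mean CPM changed by -37.6% in H460, with -37.4% in H2023 and -39.8% for ABC-1.

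Exons of HDAC7 overlap those of SLC48A1, a heme transporter gene on the opposite strand, and whether the authors' counting used strand is not given in the sources used here, so reads of the overlap cannot be told apart. SLC48A1 fell in H460, from 97.8 ± 3.10 to 73.0 ± 5.52 CPM (log2 change -0.50 ± 0.06, limma adjusted p = 2.05e-04). It also fell in ABC-1, where DMSO libraries had 99.98 ± 4.51 CPM and treated ones 61.2 ± 0.524 CPM (-0.76 ± 0.04, adjusted p = 3.98e-08). In H2023 it was 73.5 ± 3.10 CPM in DMSO and 77.2 ± 2.69 CPM with CCS1477 (0.02 ± 0.05, adjusted p = 0.754), while HDAC7 fell there by 0.72 on the log2 scale.

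HDAC4 (ENSG00000068024, protein-coding, chromosome 2, 239048168 to 239401654, minus strand) fell in both lines where it was high. Its CPM was 73.8, 74.3 and 73.8 in DMSO and 54.9, 57.2 and 52.4 with CCS1477 in H460. The corresponding H2023 libraries had 74.8, 87.6 and 87.0 CPM, then 53.7, 54.8 and 49.1 CPM. Neither pair of groups overlapped, and the log2 changes were -0.50 ± 0.04 (limma adjusted p = 4.30e-05) and -0.71 ± 0.07 (adjusted p = 6.52e-06). In ABC-1 HDAC4 stood at 12.6, 13.6 and 12.2 CPM in DMSO and 13.2, 13.3 and 10.5 CPM with CCS1477. These overlapped, with a log2 change of -0.12 (95% interval -0.36 to 0.12, adjusted p = 0.351).

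HDAC5 (ENSG00000108840, protein-coding, chromosome 17, 44076746 to 44123702, minus strand) rose in H2023 from a level near the limit of the test. Its CPM there was 1.40, 0.712 and 0.910 in DMSO, from 25, 13 and 14 reads, and 4.30, 3.62 and 3.03 with CCS1477, from 66, 59 and 50 reads. The treatments did not overlap, the ratio of mean CPM was 3.62, and the log2 change was 1.61 ± 0.24 (limma adjusted p = 1.40e-04). Since 1 of its 3 DMSO libraries reached 1 CPM, HDAC5 entered this test through its CCS1477 libraries; with no filter its adjusted p was 4.21e-04. H460 had 2.18, 2.63 and 1.88 CPM in DMSO against 3.60, 2.79 and 2.61 CPM, which overlapped (0.34, 95% interval -0.08 to 0.76, adjusted p = 0.148). In ABC-1, where HDAC5 was abundant, DMSO libraries at 32.4, 29.3 and 31.1 CPM overlapped CCS1477 libraries at 29.9, 34.2 and 31.1 CPM (-0.02, 95% interval -0.16 to 0.11, adjusted p = 0.755).

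HDAC9 (ENSG00000048052, protein-coding, chromosome 7, 18086949 to 19002416, plus strand) was the one member not tested in every line. In H460 it had 7, 7 and 9 reads in DMSO and 13, 27 and 12 with CCS1477, or 0.279 ± 0.0344 and 0.548 ± 0.292 CPM, under the minimum of 1 CPM in 3 libraries. Fitted without that filter, its log2 change was 0.60 ± 0.33 (limma adjusted p = 0.175). In H2023 it went from 2.69 ± 0.377 to 2.79 ± 0.640 CPM, a log2 change of -0.01 (95% interval -0.46 to 0.43, adjusted p = 0.961). In ABC-1 it was 3.51 ± 0.260 CPM in DMSO and 3.14 ± 0.554 CPM with CCS1477 (-0.21, -0.58 to 0.16, adjusted p = 0.281). Libraries of the treatments overlapped in both lines.

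HDAC6 (ENSG00000094631, protein-coding, chromosome X, 48801377 to 48824982, plus strand), the class IIb tubulin deacetylase, rose in H460. DMSO libraries held 14.5, 12.9 and 12.7 CPM and CCS1477 libraries 24.3, 23.1 and 22.3 CPM. That is a mean 73.7% higher with no overlap (log2 change 0.72 ± 0.07, limma adjusted p = 8.13e-05). H2023 had 19.7, 20.04 and 19.4 CPM in DMSO and 23.1, 21.3 and 23.4 CPM with CCS1477. The H2023 treatments did not overlap either, but the log2 change of 0.14 ± 0.07 missed the threshold (95% interval 0.00 to 0.29, adjusted p = 0.0833). It passed with scaling by library totals (0.20, adjusted p = 0.0233) or once reads of transcript rows were counted too (0.16, adjusted p = 0.0459). ABC-1 libraries overlapped, at 18.9, 18.2 and 15.3 CPM in DMSO and 17.6, 20.1 and 17.1 CPM with CCS1477 (0.01, -0.21 to 0.23, adjusted p = 0.948).

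HDAC11 (ENSG00000163517, protein-coding, chromosome 3, 13479724 to 13506424, plus strand), the class IV enzyme known for removing fatty acyl groups from lysine, rose in each line from a low level. In H460 it had 1.16, 0.876 and 0.708 CPM in DMSO, from 31, 24 and 20 reads, and 3.43, 2.36 and 2.27 CPM with CCS1477, from 115, 72 and 73 reads. H2023 had 2.47, 1.42 and 1.62 CPM against 3.26, 2.64 and 4.00 CPM, and ABC-1 had 3.57, 3.58 and 2.90 against 5.38, 5.80 and 4.82 CPM. No treatments overlapped, though in H2023 the nearest libraries, 2.47 and 2.64 CPM, were close. The ratio of mean CPM was 2.93 in H460, with 1.79 in H2023 and 1.59 for ABC-1. The log2 change was 1.36 ± 0.24 in H460 (limma adjusted p = 0.00155), 0.73 ± 0.23 for H2023 (adjusted p = 0.0158) and 0.58 ± 0.15 for ABC-1 (adjusted p = 0.00521). The H2023 call ended without DMSO replicate 2 (0.59, adjusted p = 0.0593) or without CCS1477 replicate 3 (0.59, adjusted p = 0.0666). In H460, 1 DMSO library reached 1 CPM, so the gene entered that test through its CCS1477 libraries, and with no filter its adjusted p was 0.00229.

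Of the 9 members tested in each of the 3 lines, 2 rose in every line and 1 fell in every line. HDAC11, 1 of the 2 that rose, had entered the H460 test through its CCS1477 libraries, and its H2023 call ended without either of 2 single libraries. Of the 11757 genes tested in every line, 14.7% rose in each and 12.7% fell in each. As shares of the summed TPM of the 10 genes, which do not depend on how a library was scaled, class I genes took 73.4 to 74.7% in the DMSO libraries of H460 and 76.4 to 78.7% with CCS1477. The class I share was 82.1 to 83.1% and then 85.9 to 87.0% in H2023, and 71.5 to 72.0% and then 75.8 to 77.7% in ABC-1. Class IIa genes took 22.1 to 23.2% and then 15.1 to 16.4% in H460, 14.0 to 15.3% and then 9.34 to 10.5% in H2023, and 23.5 to 24.5% and then 17.3 to 18.8% in ABC-1. No treatments overlapped in either share in any line. The shares were computed after the gene changes were known and restate them, with HDAC3 and HDAC7 as the members that moved in each line.

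Changes were compared between lines in 1 limma fit over the 18 libraries, and HDAC9 was left out as it did not pass the filter in H460. HDAC5 in H2023 and HDAC11 in H460 passed the filter through their CCS1477 libraries, and the counts below include both. With 1 CPM required in all libraries, neither gene was in the fit. Between H460 and H2023, 2 of 9 members differed, against 30.3% of the 11757 genes tested. HDAC6 rose more in H460 by 0.58 ± 0.12 on the log2 scale (adjusted p = 0.00118), and HDAC5 rose more in H2023, by a difference of -1.27 ± 0.25 for H460 minus H2023 (adjusted p = 8.07e-04). Between H460 and ABC-1, 6 of 9 differed, against 50.6% of all genes, and between H2023 and ABC-1 4 of 9, against 44.8%. The shares of the family are below that of all genes in the comparison of H460 with H2023, near it for H2023 with ABC-1 and somewhat above it for H460 with ABC-1.

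HDAC1 and HDAC4 moved lower in both NRF2-activated lines than in ABC-1. The difference in log2 change was -0.27 ± 0.07 for HDAC1 in H460 minus ABC-1 (limma adjusted p = 0.00229) and -0.32 ± 0.07 in H2023 minus ABC-1 (adjusted p = 6.53e-04). For HDAC4 it was -0.38 ± 0.12 (adjusted p = 0.0120) and -0.59 ± 0.12 (adjusted p = 5.65e-04). HDAC2 differed the other way, by 0.32 ± 0.05 (adjusted p = 7.37e-05) and 0.28 ± 0.05 (adjusted p = 3.30e-04). Since 1 wildtype line was profiled, the genotype and the line cannot be told apart.

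HDAC5 and HDAC6, which differed between H460 and H2023, each differed in 1 more pair. HDAC5 had a difference of 1.64 ± 0.25 for H2023 minus ABC-1 (limma adjusted p = 3.66e-05) and HDAC6 one of 0.71 ± 0.12 for H460 minus ABC-1 (adjusted p = 7.03e-05). HDAC3 rose less in H460 than in ABC-1, by -0.23 ± 0.05 (adjusted p = 0.00193). HDAC11 rose more in H460 than in ABC-1, by 0.78 ± 0.31 (adjusted p = 0.0416). That call ended when any of 7 libraries was left out, among them CCS1477 replicate 1 of H460 (0.60, adjusted p = 0.116). HDAC7 had the closest changes: the differences were -0.03 (95% interval -0.19 to 0.13), 0.04 (-0.13 to 0.20) and 0.06 (-0.10 to 0.23). Those of HDAC8 were -0.32 to 0.09, with intervals over 1 log2 unit wide.

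**Figure D4:**
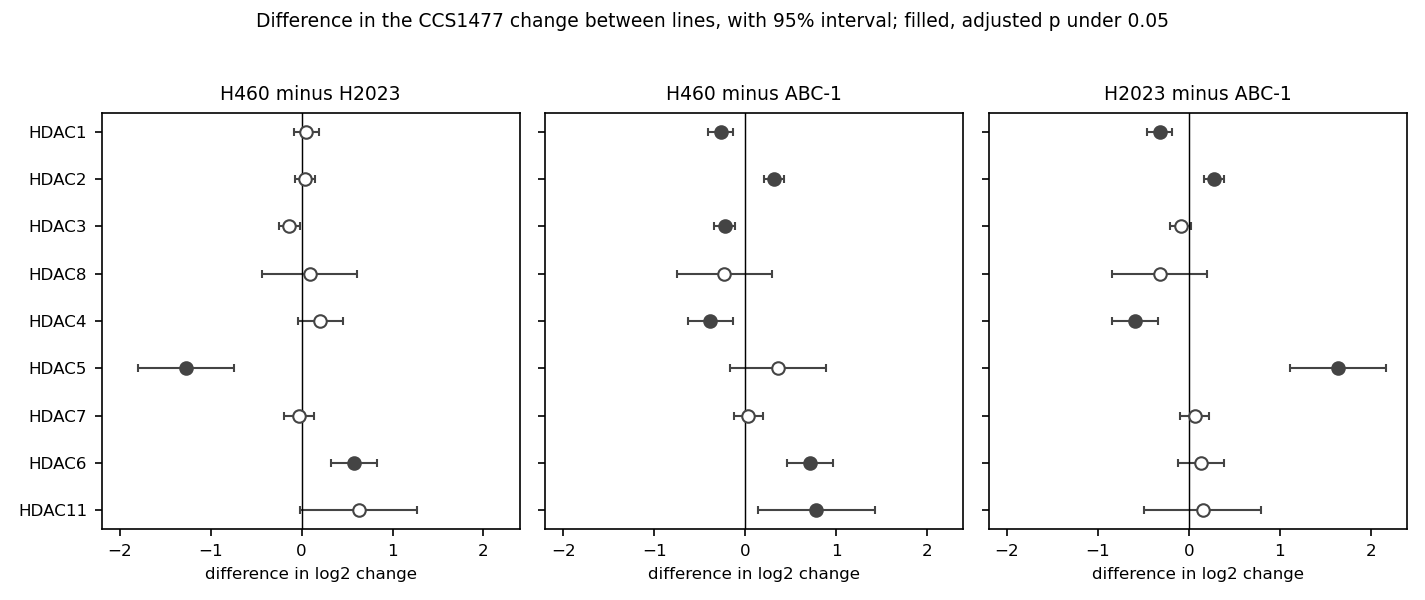
Difference between lines in the log2 change after CCS1477 for the 9 HDAC genes tested in every line, with 95% intervals from 1 fit over 18 libraries; filled points passed an adjusted p of 0.05. HDAC7 and HDAC8 are open in each panel, and HDAC5 stands farthest from 0 where H2023 is compared.

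The genes that work with these enzymes moved in both directions. Of the NuRD list (12 genes, the remodelling complex built around HDAC1 and HDAC2), 2 rose and 6 fell in H460, 3 rose and 6 fell in H2023, and 2 rose and 8 fell in ABC-1. Of all genes tested, 28.2% rose and 27.9% fell in H460, 28.6% and 31.9% in H2023, and 33.5% and 32.6% in ABC-1; none of the lists was tested against these shares. The list medians were -0.19, -0.38 and -0.42, beside all-gene medians of 0.00, -0.01 and 0.01. CHD3, a remodelling ATPase, fell from 137 ± 4.82 to 71.7 ± 2.72 CPM in H460, from 117 ± 4.74 to 60.6 ± 2.26 CPM in H2023 and from 187 ± 5.28 to 107 ± 2.49 CPM in ABC-1. The histone-binding subunit RBBP4, which SIN3 shares, fell by 0.42 in H460 (limma adjusted p = 8.07e-05), by 0.86 in H2023 (adjusted p = 1.55e-08) and by 0.99 in ABC-1 (adjusted p = 3.86e-09) on the log2 scale. CHD4, the other main ATPase, rose in H460 from 278 ± 12.5 to 357 ± 13.7 CPM and in H2023 from 311 ± 16.0 to 403 ± 5.72 CPM. It fell for ABC-1, where it had 391 ± 13.3 CPM in DMSO and 342 ± 7.99 CPM with CCS1477 (log2 change -0.25, limma adjusted p = 3.03e-04).

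Of the 15 SIN3 genes, 6 rose and 2 fell in H460, 5 rose and 4 fell in H2023, and 6 rose and 6 fell in ABC-1, with medians of 0.13, 0.00 and 0.02. Over all genes tested, the share called in either direction was 56.1%, 60.6% and 66.1% in the same order, beside which the counts of this and the next 2 complexes are to be read. ING1, which reads a methylated histone tail for SIN3, rose in each line, in H460 from 12.5 ± 0.571 to 22.4 ± 0.167 CPM. In the CoREST list, 3 rose and 2 fell of 9 tested in H460, 4 rose and 1 fell of 8 in H2023, and 4 rose and 2 fell of 8 in ABC-1. RCOR1, its scaffold, rose in each line, in H460 from 80.3 ± 0.673 to 127 ± 3.27 CPM, and ZMYM3 fell in each line, by 0.40, 0.44 and 0.50 on the log2 scale. Of the 7 genes tested for MiDAC and MIER, the remaining HDAC1 and HDAC2 complexes, 3 rose and 2 fell in H460, 2 and 2 in H2023, and 2 and 3 in ABC-1.

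The 8 NCoR genes, partners of HDAC3 and through it of class IIa enzymes, had 3 higher and 2 lower in H460, 3 and 4 in H2023, and 2 and 3 in ABC-1, where 56.1%, 60.6% and 66.1% of all genes passed. TBL1XR1, which exchanges corepressors for coactivators, fell from 42.4 ± 4.94 to 18.7 ± 1.54 CPM in H460, from 58.4 ± 10.6 to 23.2 ± 2.90 CPM in H2023 and from 71.9 ± 9.52 to 18.6 ± 1.40 CPM in ABC-1. GPS2, a further subunit, rose in H460 from 72.4 ± 5.49 to 104 ± 0.879 CPM and in H2023 from 35.7 ± 1.11 to 62.9 ± 2.70 CPM. In ABC-1 it rose too, from 34.6 ± 1.88 to 43.4 ± 0.776 CPM. HDAC3 and GPS2 thus rose in each line while TBL1XR1 fell in each.

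Class IIa binding partners had 2 higher and 2 lower of 10 in H460, 2 and 2 of 11 in H2023, and 7 and 1 of 11 in ABC-1, with medians of 0.01, 0.00 and 0.32. All genes had 28.2% higher and 27.9% lower, then 28.6% and 31.9%, then 33.5% and 32.6%. MEF2D, a transcription factor they bind, went up from 22.6 ± 0.449 to 41.9 ± 1.82 CPM in ABC-1 and down from 59.7 ± 1.98 to 48.0 ± 0.400 CPM in H2023, past the threshold in both. Its relative MEF2C fell in H460, from 64.5 ± 2.85 to 40.8 ± 3.06 CPM, and rose in H2023, from 6.89 ± 1.17 to 11.2 ± 0.931 CPM, and in ABC-1, from 1.09 ± 0.289 to 3.32 ± 0.820 CPM. Of the kinases and 14-3-3 proteins that drive class IIa export, 8 rose and 2 fell of 17 in H460, 3 and 4 of 16 in H2023, and 8 and 5 of 17 in ABC-1, beside the same shares of all genes. CAMK4, a calcium-dependent kinase, rose in H460 from 3.81 ± 0.410 to 11.5 ± 0.220 CPM, and YWHAG, a 14-3-3 protein, rose from 243 ± 2.87 to 402 ± 5.62 CPM in ABC-1.

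Among the 11 genes around HDAC6 and cytoplasmic deacetylation, 5 rose and 3 fell in H460, 6 and 1 in H2023, and 6 and 2 in ABC-1, where 56.1%, 60.6% and 66.1% of all genes passed in either direction. TPPP, a tubulin-binding protein, rose from 1.17 ± 0.277 to 8.95 ± 1.03 CPM in H460, from 1.60 ± 0.167 to 10.5 ± 0.491 CPM in H2023 and from 3.08 ± 0.634 to 38.9 ± 1.24 CPM in ABC-1. VCP, the segregase that works against HDAC6 on ubiquitinated protein, rose by 0.72, 0.59 and 0.60 on the log2 scale. SQSTM1, the autophagy receptor p62, rose from 1246 ± 16.7 to 2658 ± 42.7 CPM in H2023 and from 212 ± 1.49 to 526 ± 9.20 CPM in ABC-1. In H460 it rose too, from 1623 ± 33.3 to 2197 ± 171 CPM. Cohesin genes, around the HDAC8 substrate SMC3, had 1 higher and 6 lower of 11 in H460, 1 and 7 in H2023, and 0 and 10 in ABC-1, with medians of -0.14, -0.28 and -0.56. Over all genes 27.9%, 31.9% and 32.6% were lower, with medians of 0.00, -0.01 and 0.01. PDS5A, a cohesin regulator, fell in each line, from 260 ± 6.69 to 233 ± 10.9 CPM in H460, from 256 ± 9.79 to 205 ± 4.49 CPM in H2023 and from 241 ± 2.81 to 161 ± 2.76 CPM in ABC-1.

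**Figure D5:**
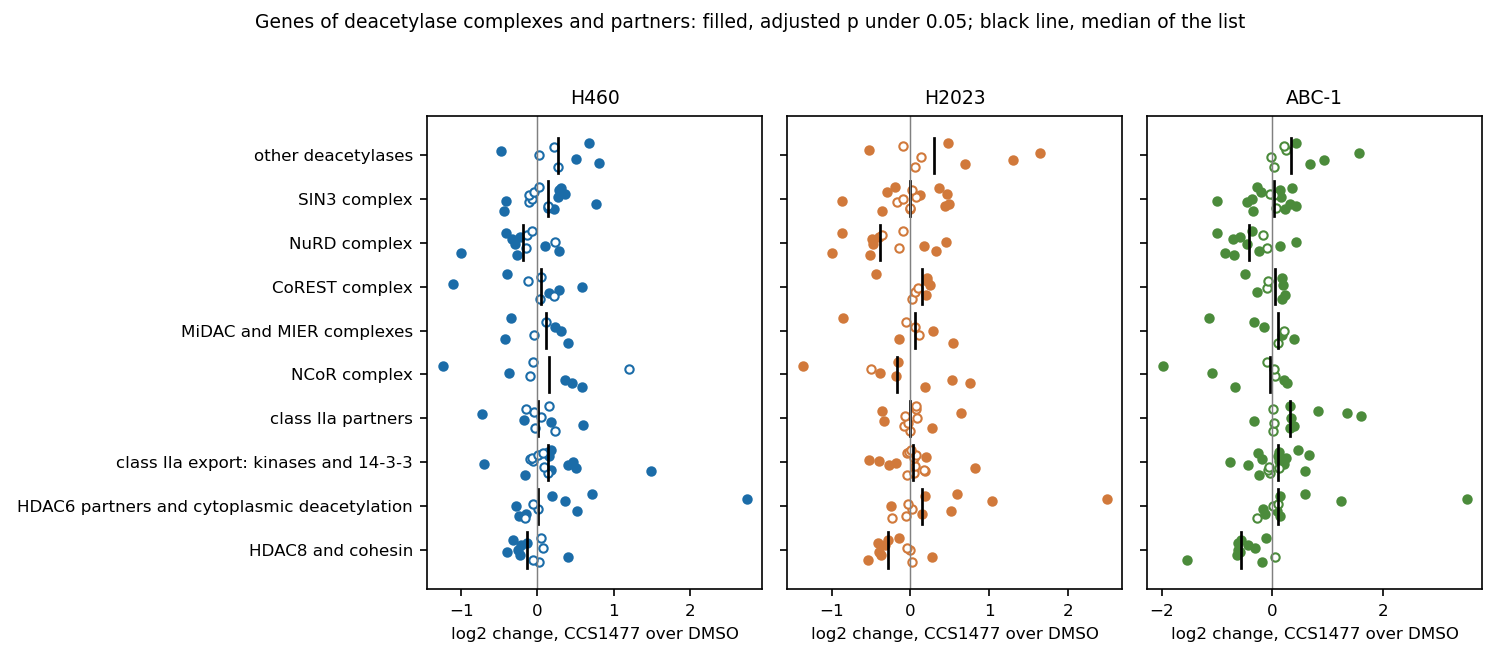
Log2 change of each tested gene of the lists of deacetylase complexes and partners, by line, with points past an adjusted p of 0.05 filled and a black line at the median of the list. Cohesin and NuRD medians lie below 0 in each line, and the other lists have filled points on both sides of 0 in at least 1 line.

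Other deacetylases are HDAC10 and the NAD-dependent sirtuins. The counts were 3 higher and 1 lower of 7 in H460, 4 and 1 of 8 in H2023, and 4 and 0 of 8 in ABC-1, with medians of 0.27, 0.30 and 0.33. Of all genes 28.2%, 28.6% and 33.5% were higher and 27.9%, 31.9% and 32.6% lower, and the difference from these shares was not tested. SIRT1, a nuclear sirtuin, rose from 37.1 ± 0.897 to 68.2 ± 3.12 CPM in H460, from 39.0 ± 0.382 to 65.8 ± 2.63 CPM in H2023 and from 34.6 ± 2.58 to 57.4 ± 1.36 CPM in ABC-1. SIRT2, which shares tubulin with HDAC6 as a substrate, rose from 25.6 ± 1.15 to 38.3 ± 1.70 CPM, from 16.0 ± 0.738 to 41.4 ± 1.25 CPM and from 28.7 ± 1.19 to 57.1 ± 1.29 CPM in the same order. The compound's targets served as the reference for the acetylating side. EP300 rose in H460, from 81.1 ± 1.20 to 104 ± 5.63 CPM, and missed the threshold in H2023 and ABC-1, and CREBBP missed it in each line.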

How the data were processed

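RNA of 18 libraries was sequenced in pairs on a DNBSEQ instrument after a directional MGI kit, per the labels' protocols; the build GRCh38 is from the submitters' processing notes, while aligner, counting program and strand setting are, so far as used here, not given in the sources. The authors deposited log2 values, which prove to be log2 of whole reads divided by 1 factor per library, plus 4, so that a row without reads is at 2. All values up to 1000 reads came out whole within 0.1. Each table was scaled separately, so levels across lines are given on CPM or TPM without a test, and a column's line is that of its table.

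Gene rows with at least 1 CPM in 3 of 6 libraries were tested in each line with limma-trend (limma 3.58.1, R 4.3.3) on the deposited log2 values, two-sided, Benjamini-Hochberg adjusted over all genes tested, with a threshold of 0.05. The constant of 4 makes log2 changes of low genes smaller than those of their CPM. Differences between lines used 1 fit over 18 libraries. Methods were tested on simulated data. TPM used merged exon lengths of GENCODE 29. Intervals are at 95%.

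The family members and lists were chosen with earlier results of these data known. All members are named, and of each list up to 3 genes a line with the smallest p; 1 gene is not reported here. RBBP4 and RBBP7 are in both the SIN3 and the NuRD lists.

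Alternatives were 3 other scalings, limma-voom, constants of 1 and 0.1, no filter and 1 CPM in all libraries, transcript rows added, 1 fit over all libraries, the replicate block and leaving out each library.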

Additional observations from a re-analysis of the deposited data

Results flagged for a closer look

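The change of a deacetylase gene differed between a pair of lines in 12 of 27 tests. Each was a test of the difference itself, in limma over 18 libraries. Over all genes tested, 30.3% differed for H460 minus H2023, 50.6% for H460 minus ABC-1 and 44.8% for H2023 minus ABC-1. Each value here is a difference in log2 change. For H460 minus H2023 it was -1.27 for HDAC5 and 0.58 for HDAC6. For H460 minus ABC-1 it was -0.27 for HDAC1, 0.32 for HDAC2, -0.23 for HDAC3, -0.38 for HDAC4, 0.71 for HDAC6 and 0.78 for HDAC11. For H2023 minus ABC-1 it was -0.32 for HDAC1, 0.28 for HDAC2, -0.59 for HDAC4 and 1.64 for HDAC5. The HDAC11 call ended when any of several single libraries was left out. HDAC5 in H2023 and HDAC11 in H460 had passed the filter through their CCS1477 libraries.

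The gene rows leave out reads that the tables give to separate transcript rows, and none of these rows was tested. At a minimum of 1 CPM in at least 3 libraries, none of 10 such rows of family members in H460, 2 of 13 in H2023 and 2 of 14 in ABC-1 were higher in each CCS1477 library than in each DMSO library, against 18.0%, 16.2% and 17.4% of all transcript rows at that level. Lower in the same sense were 3, 1 and 4 rows of the family, against 14.5%, 12.4% and 15.1% of all. The 4 rows that were higher are annotated as transcripts with a retained intron. So are the rows that were lower, except ENST00000647974.1 of HDAC8 in H460. Most family rows at that level carry this annotation in each line, moved or not. Whether the type was more frequent among the rows that moved was not tested. ENST00000476391.5 of HDAC1 in ABC-1 had 2.67 ± 0.317 CPM in DMSO (mean ± SD, n = 3 throughout) and 4.55 ± 0.736 CPM with CCS1477. In H2023, ENST00000521233.1 of HDAC2 had 17.8 ± 0.0802 CPM and then 19.1 ± 0.747 CPM. For HDAC3, ENST00000469550.6 had 1.34 ± 0.553 CPM and then 3.39 ± 1.14 CPM in ABC-1, and ENST00000491581.5 had 1.53 ± 0.141 CPM and then 1.95 ± 0.286 CPM in H2023.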

How the results depend on the processing

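Over the alternatives, 483 values for a change of a member within a line kept their side of the threshold, 4 gained a call and 2 lost it; for differences between lines these numbers were 737, 6 and 7. No call reversed. The calls that ended were HDAC11 in H2023 and HDAC11 in H460 minus ABC-1, each under libraries left out. Calls gained, beside those given for HDAC6 and HDAC8 within lines, were HDAC3 in H460 minus H2023 with the trimmed mean of M values, limma-voom or without DMSO replicate 2 of ABC-1 (adjusted p = 0.0429 to 0.0456), and, with transcript rows added, HDAC4 in H460 minus H2023 (0.26), HDAC8 in H460 minus ABC-1 (-0.33) and HDAC3 in H2023 minus ABC-1 (-0.13). With 1 CPM required in all libraries, 7 members entered the fit of differences and 1 differed between H460 and H2023; HDAC5 and HDAC11 were then not tested. With libraries left out in turn, members past the threshold numbered 6 in H460, 5 to 7 in H2023 and 4 in ABC-1, and 2 to 3, 5 to 6 and 4 for H460 minus H2023, H460 minus ABC-1 and H2023 minus ABC-1. All genes past it then numbered 6376 to 7594 in H460, 7930 to 8092 in H2023 and 8219 to 8560 in ABC-1. For the differences, in the same order, they numbered 3173 to 3615, 5532 to 5913 and 4830 to 5532. Adding transcript rows moved 35 of the 60 mean levels of members by more than 1 SD of the replicates. Scaling moved the median change of all genes by less than 0.1, and with scaling by library totals 60.22% of the calls in H460 and 53.68% of those in H2023 were higher, against 50.25% and 47.26%. Low members rest on few reads, so small changes of HDAC9, HDAC11 and, in H460 and H2023, HDAC5 were not detectable at this depth.

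Replicate numbers are shared between treatments. The correlation of same-numbered libraries over genes was 0.01 to 0.10 in H460, 0.03 to 0.04 in H2023 and -0.10 to -0.04 in ABC-1. In H2023 each library correlated best with its own number. Whether same-numbered samples share more than a number cannot be told from these values. With the replicate number as a block, members past the threshold were again 6, 6 and 4, and all genes past it were 7356, 8806 and 8768, against 7584, 8824 and 8949 without the block.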

Other observations

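The tables held 28 transcript rows of the family for H460, then 44 for H2023 and 43 in the ABC-1 table; 10, 13 and 14 of them reached 1 CPM in at least 3 libraries. In H460 3 of these were lower in each CCS1477 library than in each DMSO library, and none was higher. The transcript ENST00000647974.1 of HDAC8, annotated as a target of nonsense-mediated decay, went in H460 from 4.59 ± 0.400 to 2.29 ± 0.403 CPM (mean ± SD, n = 3, not tested), and its reads came to 30.6% of those in the HDAC8 gene row. In ABC-1 all 3 retained-intron transcripts of HDAC2 that reached this level were lower with CCS1477, as the gene row was: ENST00000521233.1 went from 19.1 ± 1.79 to 16.5 ± 0.862 CPM, ENST00000520746.1 from 8.45 ± 0.217 to 7.49 ± 0.103 CPM and ENST00000523334.1 from 6.89 ± 0.732 to 4.99 ± 0.175 CPM. The first of these had been higher with CCS1477 in H2023, where the HDAC2 gene row missed the threshold.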
